A study of Xenopus tropicalis with 15 samples.

Results

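The comparison described here is that of Xenopus tropicalis blood cells after 4.0 h of culture with erythropoietin (EPO) against the same kind of cells harvested before culture. Its members are the 3 EPO 4.0 h libraries and the 3 fresh libraries, 6 of the 15 libraries of the series, chosen by their sample titles. Of 26531 genes in the count table, 8939 passed the filter on low counts and were tested. All animals were wild type, and total peripheral blood cells were drawn from the heart into EDTA, an anticoagulant, and washed in diluted phosphate buffer with EDTA and serum. The fresh group was taken before culture and had no treatment. The EPO group was then held for 4.0 h in diluted IMDM culture medium, with serum from fetal calves and 1 ng/mL of Xenopus tropicalis EPO expressed in E. coli. The remaining groups, each with 3 libraries, were EPO for 1.5 h and control cultures for 1.5 h and 4.0 h. Total RNA was made into libraries with Lasy-Seq, a method that reads the 3' ends of transcripts. Replicates are labelled as biological, but the labels do not say whether a replicate is 1 animal or a pool, so p-values measure the spread between these libraries.

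EPO is the cytokine that supports red cell production. It binds the EPO receptor (epor), which activates the kinase JAK2, and JAK2 phosphorylates STAT5, a transcription factor. Direct STAT5 targets include the feedback inhibitors cish, socs1, socs2 and socs3 and the survival kinase pim1. Unlike those of mammals, the mature red cells of frogs keep a nucleus, and frog blood carries nucleated thrombocytes in place of platelets. Cells moved from the body into culture meet a new temperature, oxygen level, nutrient supply and surface. Common early responses to such a move are the immediate early genes, the heat shock response and the ATF4 response to amino acid shortage or other stress.

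Libraries held 1329340 to 2329659 counts in the fresh group and 2287764 to 6351053 in the EPO 4.0 h group, against a range of 1329340 to 6351053 over all 15. Globin transcripts took 41.9% to 48.4% of counts in every library. Hemoglobin genes hba1 and hbg1, the heme enzyme gene alas2, the anion exchanger gene slc4a1 and the erythroid factor gene gata1 were present in all 6 libraries. They are the 5 red cell markers of the 7 listed that the table holds. Markers of T and NK cells summed to 2.22, 13 and 3.51 CPM in fresh cells and 3.9, 4.35 and 1.97 CPM with EPO, with zap70 at 0 throughout. Markers of B cells summed to 31.8, 53.3 and 73.7 CPM and 46.8, 42.2 and 64.7 CPM. On the first principal component (19.7% of variance), the fresh libraries lay at -66.0, -24.0 and -44.3 and the EPO 4.0 h libraries at 17.6, 28.0 and 17.8, without overlap. Fresh replicates 1 and 3 stood apart on the second component (13.5%), at 53.8 and -44.3, where the other 13 libraries lay between -27.5 and 18.3. Where leaving out a library changed a described call against fresh cells, its adjusted p is given beside the gene. For the other comparisons, the named genes whose calls were lost are listed further below. Levels are CPM, the counts scaled to a common library size after TMM normalization, listed as replicates 1, 2 and 3. Changes are log2 fold changes, EPO 4.0 h over fresh unless stated, with the standard error after ±, and adjusted p is that of edgeR's two-sided quasi-likelihood test with Benjamini-Hochberg adjustment over all 8939 genes and the replicate number as a block.

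After 4.0 h with EPO, 568 genes differed from fresh cells at an adjusted p below 0.05, which is 6.35% of those tested. Of these, 249 rose (2.79%) and 319 fell (3.57%). The median change was 1.22 among the genes that rose, and the size of the median change was 1.32 among those that fell. At least 2-fold changes were seen in 155 of the genes that rose (1.73% of all genes) and 243 of those that fell (2.72%). At an unadjusted p below 0.05, 1761 genes (19.7%) differed. The median over all 8939 genes was 0.01, and 51.3% of them were higher with EPO. Of the 568 genes, 558 (98.2%) moved in the same direction in 3 of 3 replicate pairs, against 37.7% of all tested genes. No overlap between both groups was seen in 519 (91.4%), against 21.2% of all tested genes. The 568 were picked by a test on these same libraries, so neither share is separate evidence for them. Detection depended on level. Below 10 CPM, 2.8% of 4744 genes passed, and at 100 CPM or more 12.4% of 436 did. Without EPO 4.0 h replicate 2 the count was 377 and without EPO 4.0 h replicate 3 it was 338. Without the replicate block it was 326. The groups differ in EPO, in medium and serum and in time, and these cannot be told apart in this comparison. The change in control culture from fresh cells is therefore set beside the values of some of the genes. For genes without that value, a change with EPO culture is not set apart from a change in culture alone. In bulk blood, fewer cells of a type and less RNA per cell cannot be told apart.

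**Figure D1:**
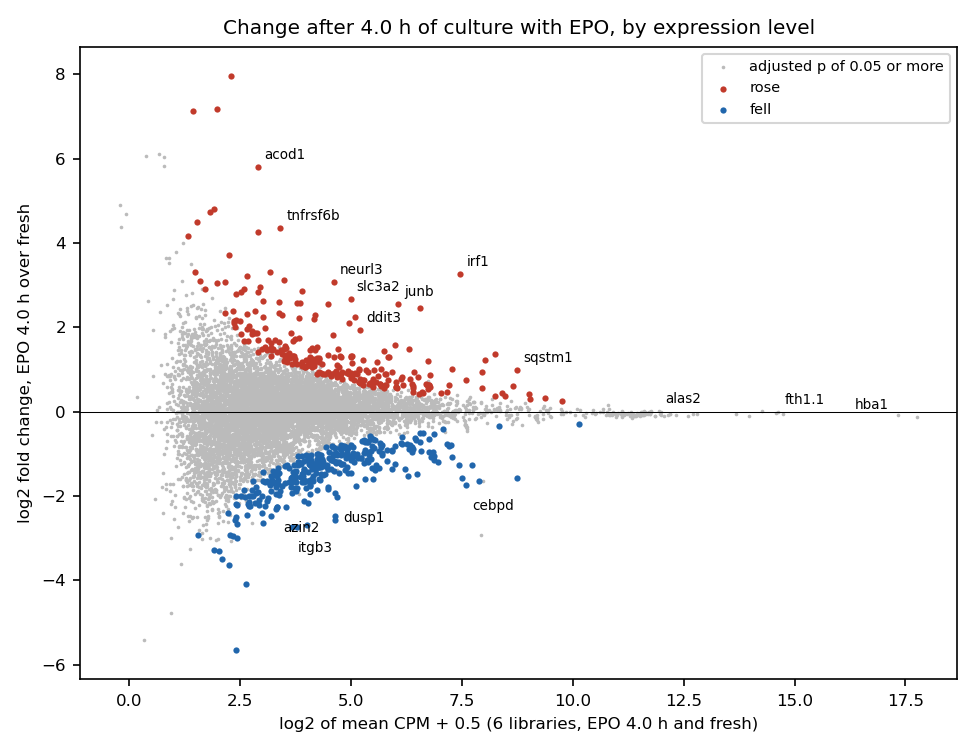
Log2 fold change of EPO 4.0 h over fresh cells (vertical axis) against the log2 of the mean CPM plus 0.5 over the 6 libraries (horizontal axis), 1 point for each of 8939 genes. The 249 genes that rose are red and the 319 that fell are blue, and the most abundant transcripts, among them hba1 and fth1.1, lie near 0.

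Gene lists, named by the pathway or cell type of their members, differed in how many members passed. The lists were chosen with earlier results of these data known, so their shares describe the members and do not test the lists. Members that rose were found in the amino acid and ATF4 list (10 of 37 tested), the heat shock list (10 of 31), the NF-kB and inflammatory list (7 of 16), the splicing factor list (7 of 34) and the immediate early list (7 of 29), where 2.79% of all genes rose. In the ATF4, heat shock, NF-kB and splicing factor lists no member fell. No member passed in either direction among 10 globins and 75 cytosolic ribosomal proteins. After thinning to the shallowest library, 2 globins and 1 ribosomal protein fell. The thrombocyte list (0 rose and 3 fell of 9) and the granulocyte and monocyte list (0 rose and 3 fell of 25) held only falls among their calls, where 3.57% of all genes fell. In the T and NK cell list 0 of 5 tested members passed, and all 5 were lower, with a median of -0.96.

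**Figure D2:**
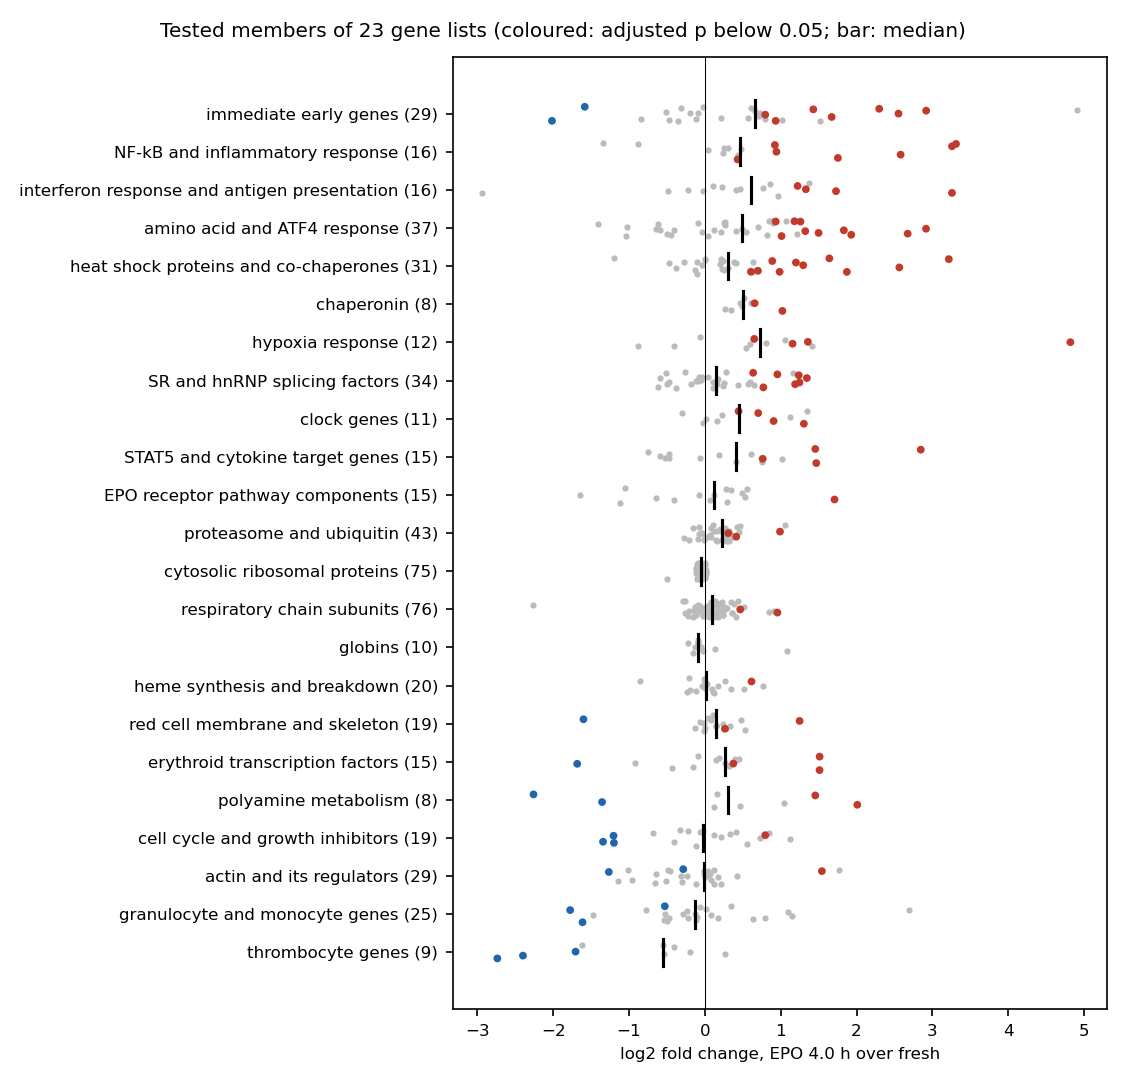
Log2 fold change of EPO 4.0 h over fresh cells (horizontal axis) for each tested member of 23 lists, with the number of tested members in brackets. Red and blue points passed an adjusted p of 0.05, grey points did not, and the black bar is the list's median, at 0.73 for hypoxia response and -0.55 for thrombocyte genes. Not drawn are the other 12 lists, which cover iron, the unfolded protein response, glycolysis, cell cycle, cholesterol, apoptosis, ribosome biogenesis, translation, peroxide defence, autophagy, T and NK cells and B cells.

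In the amino acid and ATF4 list 10 of 37 genes rose and 0 fell. ATF4 is a transcription factor whose translation increases when amino acids are short or proteins misfold. Its own transcript, atf4, stood at 176, 162 and 168 CPM in fresh cells and 383, 281 and 313 CPM after 4.0 h with EPO, a rise of 0.93 ± 0.10 (adjusted p = 1.46e-09). The heavy chain of amino acid transporters, slc3a2, stood at 5.17, 8.24 and 9.94 CPM fresh and 79.4, 32.6 and 52.3 CPM with EPO. Its rise was 2.67 ± 0.28 (adjusted p = 2.33e-10), with every EPO library above every fresh one. The transcription factor gene ddit3, which acts downstream of ATF4, went from 13.3, 15.2 and 15.8 CPM to 63.9, 49.6 and 59.6 CPM, a rise of 1.93 ± 0.23 (adjusted p = 1.18e-08). Both groups were again apart, and the EPO libraries differed little among themselves. In control culture at 4.0 h, atf4, slc3a2 and ddit3 were 0.31 ± 0.10, 1.12 ± 0.30 and 0.71 ± 0.25 above fresh cells. The cationic amino acid transporter slc7a3 rose by 1.83 ± 0.28, the neutral amino acid transporter slc38a2 by 1.50 ± 0.20, and the stress-induced nuclear protein nupr1 by 1.01 ± 0.13. A relative of ATF4, atf5.2, rose by 1.18 ± 0.19, from 19.9, 29.5 and 37.4 CPM to 61.0, 68.3 and 68.5 CPM, and its control culture value was 0.09 ± 0.21. The list's median was 0.49, with 26 of 37 members higher, and 0.80 over the 30 members measured after thinning to the shallowest library. Without the replicate block 5 members passed, and slc7a3, slc38a2 and nupr1 did not (adjusted p = 0.0601, 0.134 and 0.0511).

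In the heat shock and co-chaperone list 10 of 31 genes rose and 0 fell. The inducible cytosolic chaperone gene hspa1b stood at 5.91, 7.80 and 5.85 CPM in fresh cells and 41.7, 44.8 and 25.2 CPM with EPO. It rose by 2.56 ± 0.33 (adjusted p = 8.04e-08), and the lowest EPO library was more than 3 times the highest fresh one. Rises were 2.59 ± 0.41 for hsp70, 3.22 ± 0.71 for hspa1l and 2.35 ± 0.45 for the small heat shock protein gene hsp30d. These genes have close copies, and reads shared between copies could be split by the authors' counting. With 1 library left out, the hspa1l estimate ran from 2.36 to 8.08, so the size of its rise is uncertain. Among constitutive chaperones, hsp90ab1 went from 73.8, 68.9 and 50.3 CPM to 161, 163 and 119 CPM, a rise of 1.2 ± 0.14 (adjusted p = 4.73e-09), and the abundant hspa8 rose by 0.61 ± 0.09. The co-chaperone dnaja1 rose by 1.3 ± 0.25. The chaperonin, a ring that folds actin and tubulin, had all 8 measured subunits higher with a median of 0.50, or 0.32 without fresh replicate 1 and 0.76 without fresh replicate 2. Of these, cct4 (1.02 ± 0.20) and tcp1 (0.66 ± 0.18) rose, where 2.79% of all genes did. The chaperone of the endoplasmic reticulum, hspa5, stood at 28.8, 6.94 and 4.09 CPM fresh and 67.7, 60.0 and 33.0 CPM with EPO. All EPO libraries were higher, and the rise was 2.24 ± 0.26 (adjusted p = 3.93e-09), although fresh replicate 1 was several times the other fresh libraries. Hspa5 was the 1 member of 20 in the unfolded protein response list to pass, a share close to the 6.35% of all genes that passed. Control culture values were 1.17 ± 0.36 for hspa1b, 1.86 ± 0.44 for hsp70, 0.63 ± 0.14 for hsp90ab1 and 1.04 ± 0.27 for hspa5.

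The count of 10 among heat shock genes depended on single libraries, falling to 6 without EPO 4.0 h replicate 1, and it was 4 without the replicate block. Without the block the calls of hspa1b, hspa1l and hspa5 were lost (adjusted p = 0.0603, 0.138 and 0.184). For tcp1 the call was lost without fresh replicate 3 (adjusted p = 0.122) and without EPO 4.0 h replicate 3 (adjusted p = 0.237), and without the block (adjusted p = 0.131).

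In the NF-kB and inflammatory list 7 of 16 genes rose and 0 fell. The transcription factor irf1, which is induced by interferons and by NF-kB, showed 40.6, 35.1 and 22.8 CPM in fresh cells and 380, 374 and 200 CPM after 4.0 h with EPO. Every EPO library was far above the fresh ones, a rise of 3.26 ± 0.28 (adjusted p = 3.70e-05), and its control culture value was 2.58 ± 0.28. The chemokine gene cxcl8 stood at 0.738, 0.867 and 2.34 CPM fresh and 29.5, 12.2 and 5.31 CPM with EPO, a rise of 3.31 ± 0.65 (adjusted p = 0.00039). Replicates spread widely for cxcl8, but without overlap between groups. A ubiquitin ligase gene, neurl3, rose by 3.07 ± 0.35 (adjusted p = 5.33e-09) from 6.64, 4.33 and 4.09 CPM to 64.2, 44.8 and 19.6 CPM. The decoy receptor gene tnfrsf6b, whose product binds ligands of the TNF family, went from 1.48, 1.3 and 0 CPM to 31.8, 17 and 9.25 CPM, a rise of 4.36 ± 0.54 (adjusted p = 3.67e-08). The decoy interleukin 1 receptor il1r2 rose by 2.30 ± 0.47. The NF-kB subunit relb rose by 1.75 ± 0.36, with fresh replicate 1 above 1 EPO library, and nfkbia, the inhibitor that NF-kB itself induces, by 0.94 ± 0.18. The TNF-induced gene tnfaip2 rose by 2.58 ± 0.49, although fresh replicate 1 at 12.6 CPM lay above EPO 4.0 h replicate 3 at 7.28 CPM. Without the replicate block 3 of the 16 NF-kB list members passed. Not all genes described in this paragraph are members of that list. Of those described, cxcl8, neurl3, il1r2, tnfaip2 and relb did not pass without the block (adjusted p = 0.223, 0.173, 0.101, 0.334 and 0.179).

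Acod1, the enzyme that makes itaconate in activated mammalian macrophages, rested on 1 count in all fresh libraries together and 204 counts with EPO. The ratio of summed rates was 74.1, with a 95% interval of 13.1 to 2940 that covers counting error only. EPO libraries stood at 24.7, 12.2 and 4.55 CPM (adjusted p = 4.17e-05). In the interferon and antigen presentation list 4 of 16 members rose (2.79% of all genes did) and none fell. Besides irf1 they were the interferon regulatory factors irf7 (1.33 ± 0.25) and irf9 (1.22 ± 0.21) and the peptide transporter tap1 (1.73 ± 0.35). For tap1 the levels were 5.91, 5.2 and 6.43 CPM fresh and 18.5, 24.8 and 15.9 CPM with EPO.

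**Figure D3:**
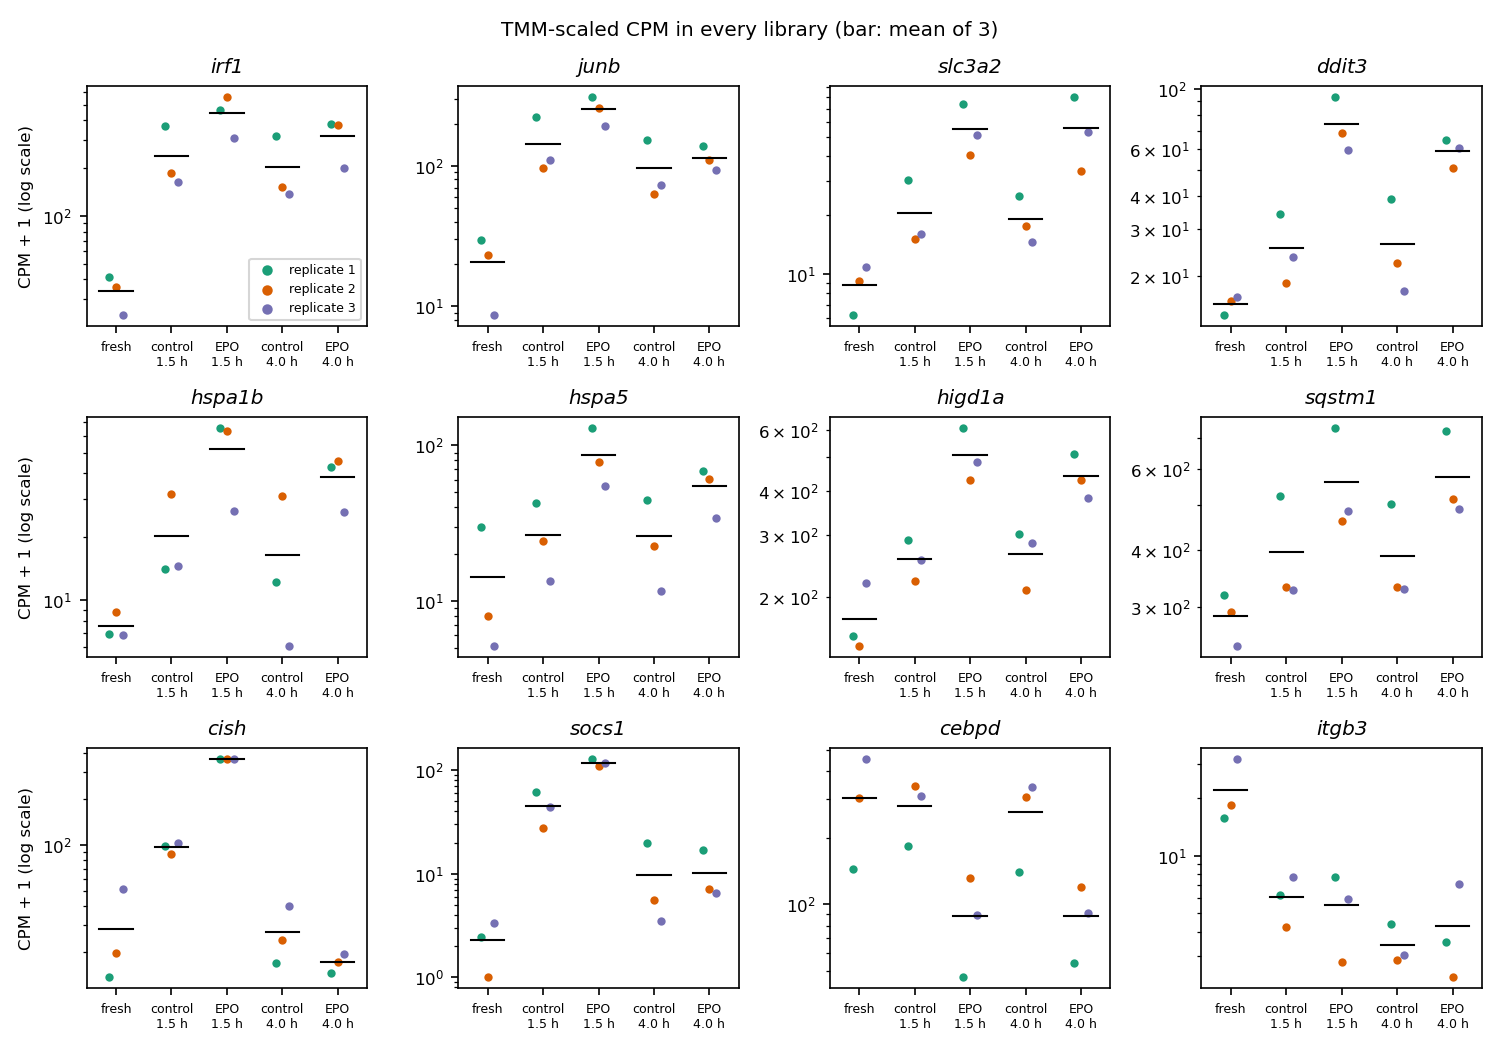
TMM-scaled CPM plus 1 on a log axis for 12 genes in all 15 libraries, by group along the horizontal axis, with replicates coloured and the mean of 3 as a bar. For irf1 the EPO 4.0 h libraries (200 to 380 CPM) lie above the fresh libraries (22.8 to 40.6 CPM), while for cish both groups overlap.

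Of 29 immediate early genes, which are switched on without new protein synthesis, 7 stood higher at 4.0 h than in fresh cells and 2 lower. Junb stood at 28.8, 22.1 and 7.60 CPM in fresh cells and 137, 108 and 92.8 CPM with EPO, a rise of 2.55 ± 0.22 (adjusted p = 4.73e-09). Its partner in the AP-1 complex, fos, went from 2.21, 0 and 1.75 CPM to 15.1, 9.14 and 4.85 CPM, a rise of 2.92 ± 0.55 (adjusted p = 0.000212). For jun, the EPO libraries at 26.3, 47.0 and 15.5 CPM were all above the fresh ones at 5.91, 5.63 and 5.85 CPM, a rise of 2.30 ± 0.35 (adjusted p = 4.83e-06). Control culture values were 2.23 ± 0.23 for junb, 3.50 ± 0.54 for fos and 1.71 ± 0.37 for jun. The AP-1 relative maff rose by 0.93 ± 0.16. The list also held 2 falls. One was dusp1, a phosphatase that switches off MAP kinases, which went from 69.4, 21.2 and 32.2 CPM to 15.1, 6.53 and 7.43 CPM. Its change was -2.01 ± 0.33 (adjusted p = 1.85e-05), and no library overlapped. Egr3, a zinc finger factor, fell by 1.58 on the log2 scale ± 0.21, from 76.0, 47.2 and 77.8 CPM to 22.5, 23.1 and 21.1 CPM (adjusted p = 1.12e-07). The list's median was 0.66, and 0.19 without fresh replicate 2. The number of members that rose was 10 without fresh replicate 1 and 4 without fresh replicate 3.

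Of 11 clock genes 4 rose (2.79% of all genes did) and 0 fell. The list's median was 0.45, or 0.72 without EPO 4.0 h replicate 3. The 4 that rose were the repressors nr1d1 (1.31 ± 0.24), cry1 (0.91 ± 0.22), per3 (0.70 ± 0.16) and cry2 (0.44 ± 0.13). Nr1d1 went from 37.7, 21.7 and 41.5 CPM to 63.0, 99.6 and 81.6 CPM (adjusted p = 0.000633), with no overlap. Control culture values were 0.80 ± 0.25 for nr1d1 and 0.42 ± 0.23 for cry1. For cry2 both groups overlapped, and its call was lost without fresh replicate 1 (adjusted p = 0.0843), without EPO 4.0 h replicate 2 (adjusted p = 0.122) and without the block (adjusted p = 0.264). Time of day at harvest is not given in the labels, and its part in the clock genes was not tested.

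Of 12 hypoxia response genes 4 rose (2.79% of all genes did) and 0 fell. Not all genes described in this paragraph are members of that list. The mitochondrial protein gene higd1a, a target of hypoxia-inducible factor in mammals, stood at 153, 143 and 217 CPM in fresh cells and 510, 430 and 381 CPM with EPO. It rose by 1.36 ± 0.11 (adjusted p = 1.32e-12), and every EPO library was above every fresh one. Its control culture value was 0.61 ± 0.12. The peptide hormone adm rested on 1 count in fresh cells and 93 with EPO, a ratio of 33.8 with a 95% interval of 5.91 to 1350. Levels of adm in control culture, 9.47, 3.99 and 4.53 CPM, lay beside 7.45, 6.53 and 5.15 CPM with EPO. The transcription factor gene hif1a itself rose by 0.65 ± 0.15, and mxi1, a MYC antagonist, by 1.16 ± 0.36. The call of mxi1 was lost without fresh replicates 2 or 3 (adjusted p = 0.188 and 0.0971), without EPO 4.0 h replicates 1, 2 or 3 (adjusted p = 0.108, 0.0783 and 0.114) and without the block (adjusted p = 0.0645). The glucose transporter slc2a1 rose by 1.25 ± 0.32, from 10.3, 6.5 and 14 CPM to 23.2, 20.0 and 28.8 CPM. Its call was lost without fresh replicate 2 (adjusted p = 0.0712) and without EPO 4.0 h replicate 3 (adjusted p = 0.0925). Among 16 glycolysis genes 2 rose and 2 fell, where 2.79% and 3.57% of all genes did. With 1 library left out, 0 to 2 rose and 0 to 3 fell. The enzyme gpi fell by 0.91 on the log2 scale ± 0.23, but fresh and EPO libraries overlapped and the call was lost without fresh replicate 2 (adjusted p = 0.0971), without EPO 4.0 h replicate 2 (adjusted p = 0.0968) and without the block (adjusted p = 0.441).

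Of 34 splicing factor genes 7 rose and 0 fell. The splicing factor srsf5 went from 99.7, 175 and 187 CPM to 272, 419 and 403 CPM, a rise of 1.24 ± 0.12 (adjusted p = 2.78e-11). Its relatives srsf7 (1.35 ± 0.28), srsf6 (1.19 ± 0.30) and srsf2 (0.77 ± 0.16) rose as well, as did the RNA-binding protein gene hnrnpl (1.25 ± 0.30). Control culture values were 0.78 ± 0.12 for srsf5, 0.58 ± 0.29 for srsf7 and 0.95 ± 0.31 for srsf6. Sqstm1, which carries ubiquitin-tagged cargo into autophagosomes, stood at 318, 292 and 245 CPM fresh and 725, 514 and 490 CPM with EPO. It rose by 0.99 ± 0.09 (adjusted p = 4.56e-12), against 0.41 ± 0.09 in control culture. The polyubiquitin gene ubc was higher in all EPO libraries (582, 567 and 634 CPM) than in fresh ones (440, 423 and 476 CPM), a rise of 0.41 ± 0.08 that did not pass without the block (adjusted p = 0.065). Among 43 genes of the proteasome and ubiquitin, 34 were higher, against 51.3% of all genes, and 3 rose (2.79% of all genes did). The list's median was 0.22, and 0.14 after thinning to the shallowest library. Without the block 1 member rose.

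Of the genes of EPO's own signalling, 1 of 15 tested rose after 4.0 h and 0 fell, a share close to the 6.35% of all genes that passed. The receptor epor stood at 134, 125 and 193 CPM in fresh cells and 80.8, 151 and 119 CPM with EPO, a difference of -0.40 ± 0.25 (adjusted p = 0.414). Both groups overlapped, and without fresh replicate 2 the difference passed (adjusted p = 0.0309). Jak2 differed by 0.34 ± 0.16 (adjusted p = 0.214), and stat5b, with 27 counts over all 15 libraries, was not tested. The gene that rose was ptpn6, a phosphatase that acts on JAK2, by 1.71 ± 0.45, and its call was lost without fresh replicate 1 (adjusted p = 0.0737) or EPO 4.0 h replicate 1 (adjusted p = 0.119). Cish stood at 12.6, 18.6 and 50.9 CPM in fresh cells, 365, 367 and 367 CPM after 1.5 h with EPO and 13.5, 16.1 and 18.3 CPM after 4.0 h. Its difference at 4.0 h was -0.75 ± 0.31 (adjusted p = 0.181), the 3 EPO 4.0 h libraries lay within the fresh range, and it passed without fresh replicate 1 (adjusted p = 0.0185). Pim1 differed by -0.06 ± 0.31 (adjusted p = 0.955) and socs2 by -0.47 ± 0.51 (adjusted p = 0.674). Socs3 differed by 0.75 ± 0.58 (adjusted p = 0.544), with fresh replicate 1 at 19.9 CPM above 2 of the EPO libraries at 13.2, 20.0 and 8.49 CPM. It passed without fresh replicate 1 (adjusted p = 0.0296), as did myc, a growth factor target, which differed by 1.02 ± 0.35 (adjusted p = 0.0733, and 0.0218 without that library).

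A few cytokine targets did remain higher than in fresh cells. Socs1 stood at 1.48, 0 and 2.34 CPM fresh and 15.9, 6.09 and 5.46 CPM after 4.0 h with EPO, a rise of 2.85 ± 0.64 (adjusted p = 0.00508). Control culture at 4.0 h was at much the same level, 18.9, 4.60 and 2.52 CPM. The call of socs1 was lost without fresh replicate 1 (adjusted p = 0.119), without the block (adjusted p = 0.191) and with all libraries thinned to the shallowest (adjusted p = 0.17). Mcl1, which protects cells from apoptosis, went from 153, 127 and 146 CPM to 202, 235 and 287 CPM, a rise of 0.76 ± 0.12 (adjusted p = 5.91e-06). The repressor bcl6 rose by 1.47 ± 0.38, but not without fresh replicate 3 (adjusted p = 0.0635) or EPO 4.0 h replicate 2 (adjusted p = 0.162). Odc1, the first enzyme of polyamine synthesis, rose by 1.46 ± 0.37, but not without EPO 4.0 h replicate 3 (adjusted p = 0.119) or without the block (adjusted p = 0.121). Its call was also lost with all libraries thinned to the shallowest (adjusted p = 0.125). The 4 were the members of the STAT5 and cytokine target list that rose, of 15 tested, where 2.79% of all genes rose. Without the block 2 members passed. The median was 0.41, but -0.12 after thinning to the shallowest library. It was 0.82 without fresh replicate 1, 0.27 without EPO 4.0 h replicate 1 and 0.22 without EPO 4.0 h replicate 2. Against control culture at 4.0 h, 0 of the 15 list members passed in either direction. There 7 of the 15 were higher with EPO, and the median was -0.0495.

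Few red cell genes passed in any list, where 2.79% of all genes rose and 3.57% fell. Of 10 globins 0 passed, and of 20 heme genes 1 rose, counts close to the 6.35% of all genes that passed. Of 15 erythroid transcription factors 3 rose and 1 fell, and of 19 red cell membrane genes 2 rose and 1 fell. With 1 library left out, 0 to 2 heme genes, 1 to 3 erythroid factors and 1 to 3 membrane genes rose. Hemoglobin hba1 stood at 234816, 226376 and 234842 CPM in fresh cells and 226406, 217667 and 194321 CPM with EPO. The difference of -0.13 ± 0.04 did not pass (adjusted p = 0.0537), although it did without fresh replicate 2 (adjusted p = 0.00297) and without EPO 4.0 h replicate 1 (adjusted p = 0.0189). With all libraries thinned to the shallowest, hba1 and hbg1 passed, at -0.18 and -0.13 (adjusted p = 0.00583 and 0.0345). Of 19 alternatives hba1 passed in 7 and hbg1 in 3. Alas2, which starts the heme pathway, was at 3495, 3911 and 4369 CPM fresh and 3779, 3769 and 4264 CPM with EPO, a difference of 0.01 ± 0.05 (adjusted p = 0.961). The ferritin gene fth1.1 and the band 3 gene slc4a1 did not pass either (adjusted p = 0.993 and 0.411). Globins share sequence, and reads could be split among copies. Of the 20 heme genes 1 rose, abcb10, a mitochondrial transporter, from 79.0, 50.7 and 69.0 CPM to 113, 86.1 and 102 CPM. Its rise of 0.61 ± 0.17 was lost without fresh replicate 2 (adjusted p = 0.0731), without EPO 4.0 h replicate 1 (adjusted p = 0.0819) and without the block (adjusted p = 0.0967). Among 15 erythroid transcription factors, etv6 rose by 1.51 ± 0.32, tal1 by 0.38 ± 0.10 and zfpm1, a partner of GATA1, by 1.51 ± 0.44, while mafg fell by 1.68 on the log2 scale ± 0.50. Gata1 itself differed by 0.39 ± 0.13 (adjusted p = 0.0502) and passed without fresh replicate 2 (adjusted p = 0.0399) or EPO 4.0 h replicate 2 (adjusted p = 0.0143).

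Calls among the erythroid factors rested on few libraries. For tal1 the call was lost without EPO 4.0 h replicates 2 or 3 (adjusted p = 0.0645 and 0.0959) or the block (adjusted p = 0.15). For zfpm1 it was lost without the block (adjusted p = 0.0559), without fresh replicates 2 or 3 (adjusted p = 0.118 and 0.149) and EPO 4.0 h replicates 1 or 3 (adjusted p = 0.0697 and 0.0875). For mafg it was lost without fresh replicates 1 or 2 (adjusted p = 0.0843 and 0.166) and EPO 4.0 h replicates 2 or 3 (adjusted p = 0.179 and 0.111). With all libraries thinned to the shallowest, the calls of etv6 and mafg were lost (adjusted p = 0.105 and 0.0915). In the list of 19 red cell membrane genes, ank1, the anchor of the membrane skeleton, and slc2a1 rose, while the membrane transport protein gene xk fell. Ank1 went from 659, 726 and 975 CPM to 948, 807 and 1059 CPM with overlap between groups, and xk from 35.4, 11.7 and 30.4 CPM to 9.65, 4.79 and 9.25 CPM without overlap. The ank1 call was lost without fresh replicate 1 (adjusted p = 0.164), EPO 4.0 h replicate 1 (adjusted p = 0.322) or the block (adjusted p = 0.458), and the xk call without fresh replicates 1 or 3 (adjusted p = 0.0863 and 0.0668). Of the 75 ribosomal protein genes tested 4 were higher and the median was -0.06. Scaled by library totals alone, 40 of them were higher and the median was 0.0017.

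Several abundant transcripts fell. Cebpd, a transcription factor of the acute phase response, stood at 144, 303 and 455 CPM in fresh cells and 53.2, 119 and 90.3 CPM with EPO. Its change was -1.75 ± 0.15 (adjusted p = 1.29e-09), each EPO library was below every fresh one, and the control culture value was -0.19 ± 0.15. The potassium channel gene kcnk2 fell from 339, 221 and 251 CPM to 113, 82.2 and 78.1 CPM, a change of -1.56 ± 0.13 with an adjusted p of 3.05e-13. In control culture kcnk2 was -0.56 ± 0.13 against fresh. The hydrolase gene aig1 fell from 407, 230 and 268 CPM to 135, 121 and 117 CPM (-1.26 ± 0.13, adjusted p = 3.96e-09). Thymosin tmsb4x, which holds actin monomers, fell from 309, 171 and 257 CPM to 120, 81.8 and 101 CPM (-1.27 ± 0.12, adjusted p = 4.59e-11), and its control culture value was -1.19 ± 0.13. The matricellular growth factor gene ctgfl changed by -2.48 ± 0.33 (adjusted p = 1.40e-07), from 42.8, 29.0 and 50.3 CPM to 8.81, 1.74 and 13.8 CPM. Without the block the calls of cebpd, tmsb4x and ctgfl were lost (adjusted p = 0.12, 0.0731 and 0.128).

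Among cell cycle and growth inhibitors 3 of 19 fell and 1 rose, where 3.57% and 2.79% of all genes did. Of the 19 genes 9 were higher. Without fresh replicate 1 the count of falls was 1, and the count of rises was 3 without fresh replicate 2 and 0 without fresh replicate 3 or any 1 EPO library. The cyclin-dependent kinase inhibitor gene cdknx, known from Xenopus, fell from 40.6, 84.5 and 83.0 CPM to 13.5, 41.3 and 30.6 CPM, a change of -1.34 ± 0.19 (adjusted p = 6.55e-07). Fresh replicate 1 lay just below EPO 4.0 h replicate 2, so the groups overlapped, and without the block the call was lost (adjusted p = 0.145). A related inhibitor, cdkn2d, fell by 1.2 on the log2 scale ± 0.29, but not without fresh replicate 1 (adjusted p = 0.0674). Sesn1, a p53 target that restrains mTORC1, fell from 46.5, 14.3 and 22.2 CPM to 9.99, 12.2 and 13.5 CPM, and its change of -1.2 ± 0.35 rested on single libraries. Its adjusted p was 0.0311 with all libraries, 0.688 without fresh replicate 1, 0.151, 0.098 and 0.101 without EPO 4.0 h replicates 1, 2 and 3, and 0.0908 without the block. The antiproliferative gene tob1 rose by 0.80 ± 0.24, which was lost without fresh replicates 1 or 3 (adjusted p = 0.0536 and 0.205), EPO 4.0 h replicates 1, 2 or 3 (adjusted p = 0.06, 0.162 and 0.0614) or the block (adjusted p = 0.0788). The replication clamp gene pcna rose by 1.33 ± 0.24, from 17, 13.4 and 22.2 CPM to 48.9, 55.2 and 32.0 CPM, with no overlap. It was 1 of 2 genes that rose among 13 cell cycle genes, where 2.79% of all genes rose. The other was the retinoblastoma relative rbl1, whose call was lost without fresh replicates 1 or 2 (adjusted p = 0.21 and 0.16), EPO 4.0 h replicates 2 or 3 (adjusted p = 0.128 and 0.1) or the block (adjusted p = 0.0603).

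Of 8 polyamine genes 2 rose and 2 fell, where 2.79% and 3.57% of all genes did. Azin2, an antizyme inhibitor, fell from 17.7, 26.0 and 3.51 CPM to 2.03, 6.09 and 1.82 CPM, a change of -2.26 ± 0.46 (adjusted p = 0.000625), and its control culture value was 0.20 ± 0.42. Fresh replicate 3 lay below EPO 4.0 h replicate 2. Spermidine synthase, srm, fell without overlap, from 40.6, 33.4 and 25.7 CPM to 11.7, 13.1 and 14.1 CPM (-1.35 ± 0.28, adjusted p = 0.000644). The 2 members that rose were odc1 and azin1, another antizyme inhibitor, and 1 rose without fresh replicates 1 or 3 or any 1 EPO library. After thinning to the shallowest library 0 of the 8 rose (adjusted p = 0.125 for odc1 and 0.139 for azin1). Azin1 stood at 2.21, 2.17 and 1.17 CPM fresh and 8.30, 9.14 and 5.61 CPM with EPO, and its call was lost without fresh replicates 1, 2 or 3 (adjusted p = 0.061, 0.0709 and 0.0919) and without EPO 4.0 h replicates 1 or 2 (adjusted p = 0.0865 and 0.0848).

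Further falls were seen in genes at lower levels. Ptger4, a prostaglandin E2 receptor, changed by -2.13 ± 0.44 (adjusted p = 0.000688), from 12.6, 6.94 and 20.5 CPM to 4.23, 1.74 and 2.73 CPM. The zinc finger repressor zbtb20 changed by -2.23 ± 0.57, the tight junction gene cldn11 by -2.32 ± 0.48, the neurexin gene nrxn3 by -2.27 ± 0.48 and the chromatin gene atf7ip2 by -2.63 ± 0.52. With replicate number 1, 2 or 3 left out of every group, the zbtb20 call was lost each time. The nrxn3 call was lost without number 1. All 4 of these genes passed without any 1 of the 6 libraries. Others did not, among them c1orf198, where fresh replicate 1 stood at 70.9 CPM against 5.2 and 7.60 CPM, and the adjusted p went from 0.00369 to 0.594 without that library and to 0.0566 without EPO 4.0 h replicate 1. Casp8, a protease that starts apoptosis, fell by 1.21 on the log2 scale ± 0.29 from 34.0, 29.5 and 40.3 CPM to 12.9, 15.2 and 17 CPM. The BCL2 relative bcl2l14 rose from 25.8, 32.1 and 35.7 CPM to 116, 84.4 and 87.6 CPM, a change of 1.58 ± 0.17 (adjusted p = 8.41e-10), which held in each alternative tried.

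Of 9 thrombocyte genes 3 fell, and of 25 granulocyte and monocyte genes 3 fell, where 3.57% of all genes fell. Itgb3, the beta subunit of the fibrinogen receptor of thrombocytes, stood at 14.8, 17.3 and 31.0 CPM in fresh cells and 2.54, 1.31 and 6.06 CPM with EPO, a change of -2.73 ± 0.49 (adjusted p = 0.000103). It was as low in control culture, at 3.38, 1.84 and 2.02 CPM. F13a1, a clotting factor subunit, and fermt3, an activator of integrins, also fell (-2.40 ± 0.63 and -1.70 ± 0.50). The f13a1 call was lost without fresh replicate 3 (adjusted p = 0.231) and EPO 4.0 h replicates 1 or 3 (adjusted p = 0.0714 and 0.127), and without the block (adjusted p = 0.059). The fermt3 call was lost without fresh replicates 2 or 3 (adjusted p = 0.158 and 0.122), EPO 4.0 h replicates 2 or 3 (adjusted p = 0.173 and 0.0938) and without the block (adjusted p = 0.142). The median of the 9 tested thrombocyte genes was -0.55, and 1 was higher. The median was -1.02 without fresh replicate 1, -0.30 without fresh replicate 3 and -0.89 without EPO 4.0 h replicate 3. Counts of falls in this list ranged from 1 to 4, with 4 without fresh replicate 1, 2 without fresh replicate 2, 1 without fresh replicate 3, 2 without EPO 4.0 h replicate 2, and 1 without EPO 4.0 h replicate 3.

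The summed level of 7 thrombocyte markers was 454, 367 and 474 CPM in fresh cells and 489, 418 and 470 CPM with EPO, so the sums overlapped. Most of that sum was tubb1, at 307 to 404 CPM fresh and 392 to 453 CPM with EPO. Of the granulocyte and monocyte list, mpo, the peroxidase of granules, fell by 1.61 on the log2 scale ± 0.32, from 52.4, 13 and 21.0 CPM to 17.3, 6.96 and 4.55 CPM, with overlap between groups. Cybb, a subunit of the phagocyte oxidase, fell by 1.77 ± 0.47 and alox5ap, which serves leukotriene synthesis, by 0.53 ± 0.13, both on the log2 scale. Of the 25 genes in that list 9 were higher, and the median was -0.125. Without the block none of the 25 passed, with adjusted p of 0.384 for mpo, 0.0603 for cybb and 0.0559 for alox5ap. The count of 3 was 1 without EPO 4.0 h replicate 2. Cybb was lost without fresh replicate 2 (adjusted p = 0.0719) and EPO 4.0 h replicates 2 or 3 (adjusted p = 0.064 and 0.0967), and alox5ap without fresh replicate 1 (adjusted p = 0.0541) and EPO 4.0 h replicate 2 (adjusted p = 0.0645). The 9 markers of granulocytes and monocytes in the table summed to 484, 368 and 309 CPM fresh and 339, 210 and 237 CPM with EPO. These sums were lower with EPO in each replicate pair, while both groups overlapped. The marker spi1 went the other way in each pair, from 3.69, 11.3 and 0.585 CPM fresh to 15.6, 13.1 and 7.12 CPM with EPO. The part of cell numbers in the falls of the thrombocyte and the granulocyte and monocyte genes was not tested.

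Set against control culture of the same length, EPO 4.0 h differed at 76 of 8939 genes (0.85%), with 29 higher (0.324%) and 47 lower (0.526%). At an unadjusted p below 0.05 the share was 9.29%, and in 14.4% of genes the libraries of both groups did not overlap. Both cultures were of 4.0 h. This comparison shares the EPO 4.0 h libraries with the one above. Slc3a2 was 1.56 ± 0.23 higher with EPO than in control culture (adjusted p = 1.52e-05), with 24.0, 16.6 and 13.6 CPM in control. For ddit3 the difference was 1.21 ± 0.20 (adjusted p = 0.000126), with control at 37.9, 21.5 and 16.6 CPM. Atf5.2 was 1.09 ± 0.18 higher, higd1a 0.75 ± 0.11, atf4 0.63 ± 0.10 and sqstm1 0.58 ± 0.09. The ATF4 list held 6 of the genes that were higher, of 37 tested, where 0.324% of all genes were. The heat shock list held 2 of 31. The immediate early, NF-kB, splicing factor and hypoxia lists held 1 each, of 29, 16, 34 and 12. In the interferon, clock and STAT5 target lists 0 passed in either direction, of 16, 11 and 15. Neurl3 was 1.86 ± 0.29 higher, and its control libraries spread from 2.52 to 28.7 CPM. Chaperones hspa5 and hspa1b were 1.2 ± 0.22 and 1.39 ± 0.27 higher, the latter not without control 4.0 h replicate 1 (adjusted p = 0.0537).

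Among the lower genes, cdknx stood at 74.1, 124 and 76.6 CPM in control and 13.5, 41.3 and 30.6 CPM with EPO, a difference of -1.78 ± 0.18 (adjusted p = 1.02e-09). Cebpd was -1.55 ± 0.15 (adjusted p = 3.48e-08), with control at 138, 306 and 339 CPM, close to fresh cells. Azin2 was -2.46 ± 0.45, kcnk2 -1.0 ± 0.13 and aig1 -0.84 ± 0.13. The same test found no difference past the threshold for irf1 (0.68 ± 0.23, adjusted p = 0.305), junb (0.32 ± 0.18, adjusted p = 0.622), tmsb4x (-0.08 ± 0.13, adjusted p = 0.906) or itgb3 (0.33 ± 0.56, adjusted p = 0.918). Without the block 17 genes passed. The differences of atf4, higd1a, sqstm1, neurl3, hspa5, hspa1b, cdknx, cebpd and azin2 were then lost (adjusted p = 0.126, 0.0565, 0.501, 0.801, 0.825, 0.701, 0.249, 0.471 and 0.0505), while those of slc3a2, ddit3, atf5.2, kcnk2 and aig1 passed. Without EPO 4.0 h replicates 2 and 3 in turn the count was 49 and 42.

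**Figure D4:**
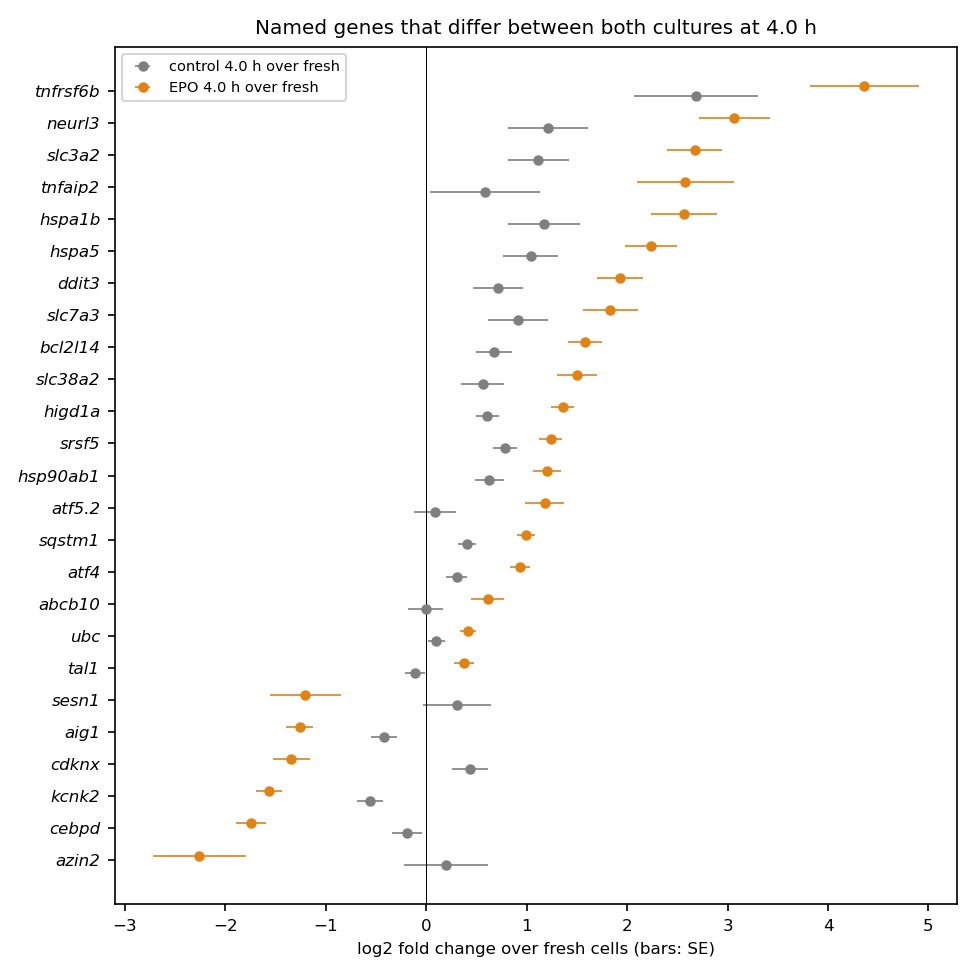
Log2 fold change over fresh cells (horizontal axis, bars show SE) for EPO 4.0 h in orange and control 4.0 h in grey, for the named genes that differed between both cultures at an adjusted p below 0.05. For cdknx, azin2 and sesn1 the control value lies above 0 and the EPO value below it, while for slc3a2, ddit3 and hspa5 both lie above 0.

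Set against 1.5 h with EPO, the level at 4.0 h was lower for 42 genes (0.47%) and higher for 3 (0.0336%), 45 in all (0.503%). At an unadjusted p below 0.05 the share was 3.37%, and 9.39% of genes had no overlap. The EPO 4.0 h libraries are again shared with the comparisons above. Cish was -4.57 ± 0.27 (adjusted p = 1.19e-08) and socs3 -4.22 ± 0.40 (adjusted p = 0.000523), the latter from 250, 278 and 181 CPM. Socs1 was -3.84 ± 0.31 (adjusted p = 1.72e-09), from 127, 108 and 117 CPM, and myc -2.66 ± 0.25 (adjusted p = 1.37e-11), from 68.3, 64.6 and 57.7 CPM. In each of these 4 genes every 1.5 h library was above every 4.0 h library. Of the 15 STAT5 and cytokine targets 8 were lower, with a median of -1.28 against -0.00115 over all genes, and of the 29 immediate early genes 7 were. Junb was -1.17 ± 0.17 and fos -1.97 ± 0.30, and both still stood above fresh cells at 4.0 h. Ptger4 was 29.9, 29.5 and 24.6 CPM at 1.5 h, above fresh cells, and below them at 4.0 h, a difference of -3.33 ± 0.41 (adjusted p = 4.18e-08).

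The polyubiquitin gene ubb was lower by 0.93 on the log2 scale than at 1.5 h (-0.93 ± 0.08, adjusted p = 6.26e-13), and remained 0.31 ± 0.08 above fresh cells. That rise was lost without fresh replicate 1 (adjusted p = 0.112), EPO 4.0 h replicate 3 (adjusted p = 0.0791) or the block (adjusted p = 0.324). The genes that were higher at 4.0 h included txnip, which binds thioredoxin and limits glucose uptake (1.40 ± 0.26, adjusted p = 0.000909), from 14.2, 18.7 and 17.9 CPM to 31.5, 62.6 and 44.6 CPM. For other genes that differed from fresh cells the test between both times did not pass. Slc3a2 differed by 0.00 ± 0.21 (adjusted p = 1), sqstm1 by 0.05 ± 0.09 (adjusted p = 1), cebpd by 0.02 ± 0.15 (adjusted p = 1) and kcnk2 by 0.07 ± 0.13 (adjusted p = 1). A p that misses the threshold does not show that the levels are equal, and the standard errors give what could have been seen. Without the block 23 of the 45 passed, and junb, fos and txnip did not (adjusted p = 1, 0.196 and 0.562).

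**Figure D5:**
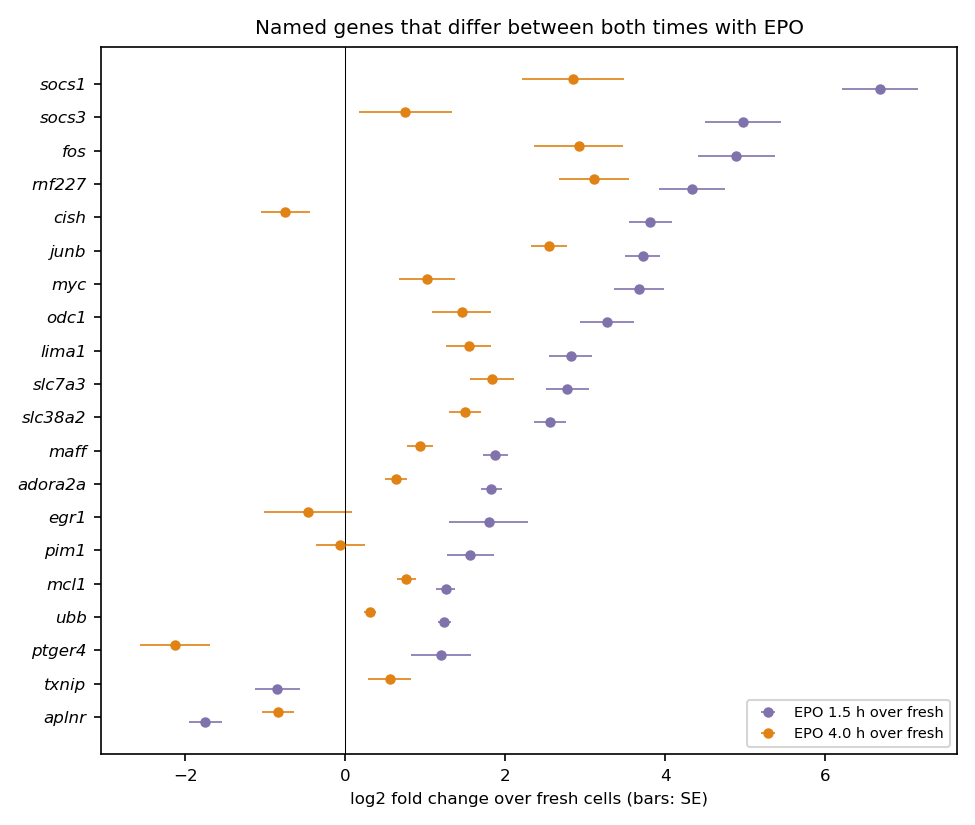
Log2 fold change over fresh cells (horizontal axis, bars show SE) for EPO 1.5 h in purple and EPO 4.0 h in orange, for the named genes that differed between both times at an adjusted p below 0.05. Cish, socs3, pim1 and egr1 stand high at 1.5 h and within 1 log2 unit of fresh cells at 4.0 h, while junb, fos, rnf227 and socs1 stay above 2.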

How the data were processed

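Blood cell RNA of 15 libraries was measured by 3' RNA sequencing, and 6 of them form the main comparison. The authors deposited 1 table of raw counts per gene. Per the submitters' processing notes the tools were fastp 0.21.0, BWA 0.7.17-r1188, Salmon and R 4.3.2. The sources used here give neither genome build nor strand setting. Counts were scaled by TMM, filtered with filterByExpr and fitted over all 15 libraries with edgeR 4.0.16 (R 4.3.3), with group and replicate number as terms and 8 residual degrees of freedom. P-values were adjusted over 8939 genes, threshold 0.05, two-sided. Library totals ran from 1329340 to 6351053, and 3 counts equal 0.4548 to 2.215 CPM, which limits genes near the floor. Intervals cover counting error only.

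Replicate numbers come from the sample titles. Over 1417 well expressed genes, deviations from group means correlated at 0.28 to 0.626 in all 30 same-numbered pairs and at -0.391 to 0.0484 in 60 others, so the number pairs the libraries. Replicates of a group differed by more than sampling noise. On simulated counts for 8570 genes of the main comparison the test recovered 41.7% of genes changed 2-fold and 70.8% of those changed 4-fold. It made 3 false calls of 111. These counts were drawn with the spread and replicate block of the same model, so the false calls do not cover departures from that model.

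The members and the 35 gene lists were chosen with earlier results of these data known. Named genes are, among called genes with a readable symbol, no overlap and at least 10 CPM in the higher group, the 15 largest rises and 15 largest falls, the 10 largest CPM changes, up to 10 that also differ from control 4.0 h and up to 6 per direction that also differ from EPO 1.5 h. Up to 5 called members per list and a set of 23 tested genes named whatever their p were added. Alternatives were other scalings (DESeq2 size factors, totals alone, no globin genes), filters, thinning to the shallowest library, no replicate block, a 2-fold minimum, only the groups compared, DESeq2 1.42.0, limma 3.58.1 voom, and leaving out each library or replicate number.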

Additional observations from a re-analysis of the deposited data

Results flagged for a closer look

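Listed here are named genes whose change from fresh cells differed between both cultures at 4.0 h, or between both times with EPO, by edgeR's test of the difference itself at an adjusted p below 0.05. The values are differences on the log2 scale, and no explanation was weighed.

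With EPO less without EPO at 4.0 h, amino acid and stress response genes differed by 1.56 (slc3a2), 1.21 (ddit3), 1.09 (atf5.2), 0.63 (atf4), 0.94 (slc38a2), 0.92 (slc7a3), 0.58 (sqstm1) and 0.31 (ubc). Chaperones differed by 1.39 (hspa1b), 1.2 (hspa5) and 0.57 (hsp90ab1). Inflammatory and other raised genes differed by 2.00 (tnfaip2), 1.86 (neurl3), 1.68 (tnfrsf6b), 0.91 (bcl2l14), 0.75 (higd1a) and 0.46 (srsf5), and the red cell genes abcb10 and tal1 by 0.62 and 0.49. Lower with EPO were azin2 (-2.46), cdknx (-1.78), cebpd (-1.55), sesn1 (-1.51), kcnk2 (-1.0) and aig1 (-0.84). The calls of hspa1b, hsp90ab1, slc38a2, slc7a3, ubc, srsf5, tnfaip2, tnfrsf6b, abcb10, tal1 and sesn1 were lost when 1 library was left out, with adjusted p up to 0.369 for abcb10 without control 4.0 h replicate 2. In cdknx, azin2 and sesn1 the estimate for control culture lay above fresh cells and that for EPO culture below them. For azin2 the control estimate was smaller than its standard error. The sesn1 fall from fresh cells with EPO was lost without fresh replicate 1 (edgeR adjusted p = 0.688).

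At 4.0 h less 1.5 h with EPO, the cytokine targets differed by -4.57 (cish), -4.22 (socs3), -3.84 (socs1), -2.66 (myc), -1.82 (odc1), -1.63 (pim1) and -0.49 (mcl1). Immediate early genes differed by -2.26 (egr1), -1.97 (fos), -1.17 (junb) and -0.95 (maff). Others lower at 4.0 h were ptger4 (-3.33), lima1 (-1.28), rnf227 (-1.22), adora2a (-1.2), slc38a2 (-1.06), slc7a3 (-0.95) and ubb (-0.93). Higher at 4.0 h were txnip (1.40) and aplnr (0.91). The calls of mcl1, egr1, pim1, rnf227, slc7a3 and aplnr were lost when 1 library was left out, with adjusted p up to 1 for mcl1 without EPO 4.0 h replicate 1. Ptger4 stood above fresh cells at 1.5 h and below them at 4.0 h.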

How the results depend on the processing

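Without the replicate block the counts were 326 against fresh cells, 17 against control 4.0 h and 23 against EPO 1.5 h, in place of 568, 76 and 45. With a 2-fold minimum they were 35, 1 and 12. With limma voom they were 161 against control 4.0 h and 69 against EPO 1.5 h, and with only the groups compared 88 against EPO 1.5 h. Leaving out 1 library gave 338 to 512, 42 to 73 and 33 to 44. Leaving out replicate number 1, 2 or 3 in every group gave 278, 317 and 345 against fresh cells and 60, 40 and 37 against control 4.0 h. Against fresh cells, scaling by library totals alone gave 289 higher and 275 lower, no filter 288 and 239, and voom 179 and 402.

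Of 122 named genes that passed against fresh cells, 76 did so without any 1 library and 13 in every alternative, and none changed direction in the alternatives run. Lost were 49 without the block, 102 with the 2-fold minimum and 21 with thinning. Leaving out replicate number 1, 2 or 3 in every group lost 45, 46 and 35 of the 122. Genes that had not passed changed sign in places. The alas2 change was -0.0109 with size factors, -0.0095 without globins, -0.0473 at 10 CPM or more, -0.0383 with only the 2 groups, -0.0434 thinned and -0.0106 with DESeq2. The fth1.1 change was 0.0552 with library totals, 0.0886 without a filter and 0.0087 with voom. The hbg1 change was 0.0044 without a filter and 0.0041 with voom, that of pim1 0.0293 without a filter, and that of tfrc -0.678 thinned. Without replicate number 1 the changes were -0.0433 for alas2, 1.37 for egr1 and 0.201 for pim1, without number 2 it was -0.0056 for socs3, and without number 3 they were 0.0109 for fth1.1, 0.0536 for pim1 and 0.36 for socs2. With 1 library left out, the range was -0.0491 to 0.0793 for alas2, -1.04 to 1.16 for egr1, -0.0252 to 0.0523 for fth1.1, -0.323 to 0.277 for pim1, -0.894 to 0.367 for socs2 and -0.0698 to 1.26 for tfrc. The cause was not tested. Depth limits what can be seen of genes near the floor.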

Other observations

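The genes below lie outside the naming rule and were chosen after their values were seen, so they describe these libraries and support nothing. No read of il18bp or of gbp6, an interferon-induced GTPase, was counted in fresh cells. Il18bp, whose product binds interleukin 18, had 0 counts in fresh cells and 103 with EPO, at 7.62, 15.2 and 3.49 CPM. That is at least 12.5-fold higher, measured against 3 counts over the whole fresh group. Gbp6 had 0 and 71 counts, at least 8.59-fold higher by the same floor. Control culture at 4.0 h held 4.74, 3.68 and 0 CPM of il18bp and 8.12, 1.53 and 0.504 CPM of gbp6.

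A few lysosomal enzyme genes fell, and the whole group was not examined. Glb1, the lysosomal beta-galactosidase, went from 86.4, 67.6 and 51.4 CPM to 39.1, 27.0 and 36.5 CPM (-0.98 ± 0.20, edgeR adjusted p = 0.000491). The sulfatase gene arsb (-1.36 ± 0.29) and the nuclease gene dnase2 (-1.09 ± 0.21) also fell. Their control culture values were -0.43 ± 0.20, -0.65 ± 0.28 and -0.47 ± 0.21. So did 2 hormone receptor genes. Prlr, the prolactin receptor, fell from 42.8, 54.2 and 48.5 CPM to 23.2, 17.8 and 26.2 CPM (-1.11 ± 0.22, edgeR adjusted p = 0.000464), with no overlap, and ghr, the growth hormone receptor, changed by -1.32 ± 0.32.

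A small GTPase gene, rasl11b, crossed the fresh level. It stood at 30.3, 65.9 and 56.1 CPM in fresh cells, 179, 260 and 180 CPM after 1.5 h with EPO and 22.7, 46.1 and 34.7 CPM after 4.0 h. Control culture at 1.5 h was also above fresh cells, at 150, 163 and 142 CPM. At 4.0 h with EPO rasl11b was below fresh cells (-0.58 ± 0.17, edgeR adjusted p = 0.0224), although both groups overlapped. It was also below control culture at 4.0 h (-1.0 ± 0.16, adjusted p = 4.16e-05), where it stood at 55.5, 94.1 and 54.9 CPM.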
